A study of Mus musculus with 6 samples.

Results

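The neutrophil granule genes examined here are 9 genes, Lcn2, S100a8, S100a9, Mpo, Elane, Camp, Ltf, Ngp and Retnlg, chosen by symbol from the 24704 named genes of a mouse lung array study. Each of the 9 had 1 probe set, the group of array probes that measures a transcript. Whole-lung RNA was measured on 3 arrays of EC knockout mice, Nfat5(EC)-/-, in which the osmosensitive transcription factor NFAT5 was deleted from endothelial cells, and on 3 arrays of control mice, Nfat5fl/fl, which carry the loxP-flanked alleles. Both groups were kept in hypoxia for 7 days. The labels give the mice of the study as male and female, aged 10 to 12 weeks at ablation, without the sex behind each array. Knockout mice received tamoxifen into the peritoneum, 1 mg a day for 5 days, while controls received the solvent miglyol, and a recovery of 2 to 3 weeks followed. Genotype and tamoxifen therefore cannot be told apart, and no source used here names the Cre line. Blood was flushed from the lungs with cold Ringer solution. The authors had left out preparations with other tissue in them or with a poor expression response to hypoxia.

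Neutrophils carry ready-made antimicrobial proteins in granules that are filled in sequence as the cells mature in the bone marrow. Azurophil granules hold myeloperoxidase and the serine proteases, specific granules hold lactoferrin, the cathelicidins and lipocalin 2, and the S100A8/S100A9 pair fills the cytosol. Transcription of most granule genes is switched off before the cell reaches the blood, so their mRNA mainly marks precursors, while S100a8, S100a9 and Retnlg mRNA persists in mature cells. Some members are not confined to neutrophils: airway epithelium also makes lipocalin 2 and lactoferrin.

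Promoter sequences are shown for Lcn2 and Ngp, the members that passed the test described below, and for Ltf, a member that did not. Each is the 250 bases before the gene start in RefSeq, build GRCm38.p6, written 5′ to 3′ on the gene's strand. Capitals mark matches to TTGCNNAA, a core bound by the C/EBP factors that drive granule genes, searched on both strands. The Lcn2 promoter lies at chr2:32387740-32387989 (minus strand), that of Ngp at chr9:110419558-110419807 (plus strand) and that of Ltf at chr9:111019042-111019291 (plus strand).
Lcn2: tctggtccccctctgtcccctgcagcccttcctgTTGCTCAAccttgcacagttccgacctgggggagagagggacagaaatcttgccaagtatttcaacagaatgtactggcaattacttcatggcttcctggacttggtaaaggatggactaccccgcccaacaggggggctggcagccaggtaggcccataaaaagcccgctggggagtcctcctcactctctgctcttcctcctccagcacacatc
Ngp: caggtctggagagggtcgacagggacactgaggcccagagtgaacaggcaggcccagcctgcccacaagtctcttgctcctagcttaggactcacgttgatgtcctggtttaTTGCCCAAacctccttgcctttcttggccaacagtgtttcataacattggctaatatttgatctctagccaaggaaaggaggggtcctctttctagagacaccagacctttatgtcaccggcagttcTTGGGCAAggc
Ltf: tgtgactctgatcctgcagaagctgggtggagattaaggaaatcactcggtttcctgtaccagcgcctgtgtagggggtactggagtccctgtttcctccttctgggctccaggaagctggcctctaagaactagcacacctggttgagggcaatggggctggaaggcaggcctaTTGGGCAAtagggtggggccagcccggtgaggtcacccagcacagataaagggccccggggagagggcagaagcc
The match begins 216 bases before the start in Lcn2 and 75 bases before it in Ltf, and Ngp has matches that begin 138 and 11 bases before it. All 9 members had an entry in the promoter table. Of these, 5 held the C/EBP letters (Lcn2, S100a9, Ltf, Ngp and Retnlg), where 9.56% of 32851 promoters of this length did. The letters GAGGAAGT, a core bound by PU.1, were found for 3 members (S100a8, Mpo and Elane) and in 2.44% of promoters. TGGAAA, the core read by NFAT proteins including NFAT5, was found for Retnlg alone among the members and in 18.6% of promoters. No C/EBP match overlapped a match of another motif in the members. A match is a description of letters and not evidence of binding.

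Array values are log2 expression, so a difference of 1 is a 2-fold difference, and they carry no detection calls. Every array had a lower quartile of 2.02 and a median of 2.98, and without such calls values near or under the quartile could not be told from background. Nfat5 stood at 4.46, 4.48 and 3.89 on knockout replicates 1, 3 and 4, against 6.65, 6.58 and 6.30 on control replicates 1, 3 and 4 (this order of replicates is kept below), although no source here gives the deleted part or the probe positions. Lung markers were high on every array: Sftpc, the surfactant protein of alveolar type 2 cells, stood at 11.3 to 12.2 in knockouts and 12.1 to 12.2 in controls. Correlations across genes, which are not independent replicates, were 0.916 to 0.939 among knockout arrays and 0.968 to 0.970 among control arrays. Xist, expressed from the inactive X of females, was at 2.03 to 2.28 on the knockout arrays, against 8.22 on control replicate 1 and 2.36 to 2.37 on the other controls, so a high level was seen on 1 of the 6 arrays and on no knockout array. With Xist as a covariate Nfat5 and Lcn2 held. Among the named genes that passed without it, the calls of Ngp, Prtn3, G0s2, Fpr2, Wfdc21, Spi1, Myb, Cybb, Il17a, Serpinb1a, Icam1, Jam3, Pecam1, S100a16, Reg3g, Ly6c2, F13a1, Cpa3, Cldn5 and Foxf1 were lost with it. Because Xist was high on control replicate 1 alone, the covariate could not tell sex from that array. Over all genes 2827 passed with the covariate and 3141 without control replicate 1, against 6292 in the main fit. A call lost with Xist as a covariate therefore does not show that the gene depends on sex. Removal of the trend in gene length ended the calls of Ngp, Prtn3, Il17a, Icam1, Myb, F13a1 and Foxf1.

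Of the 9 members, 1 fell (Lcn2), 1 rose (Ngp) and 7 did not pass an adjusted p of 0.05 in limma, fitted and adjusted over all 24704 genes. Over all genes 25.5% passed, 12.5% higher and 13% lower in the knockout, so 2 calls in 9 genes is a share near the background. The median log2 fold change of the 9 was −0.17, beside 0.04 over all genes. The values of Camp, Ltf, Retnlg and S100a8 were negative but turned positive without knockout replicate 1. Bracketed values with ± below are log2 fold changes, knockout over control, with the SE from limma. Knockout and control arrays did not overlap for 2 members, where 41.9% of all genes were so separated, 21.9% with the knockout above and 20.0% with it below.

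**Figure D1:**
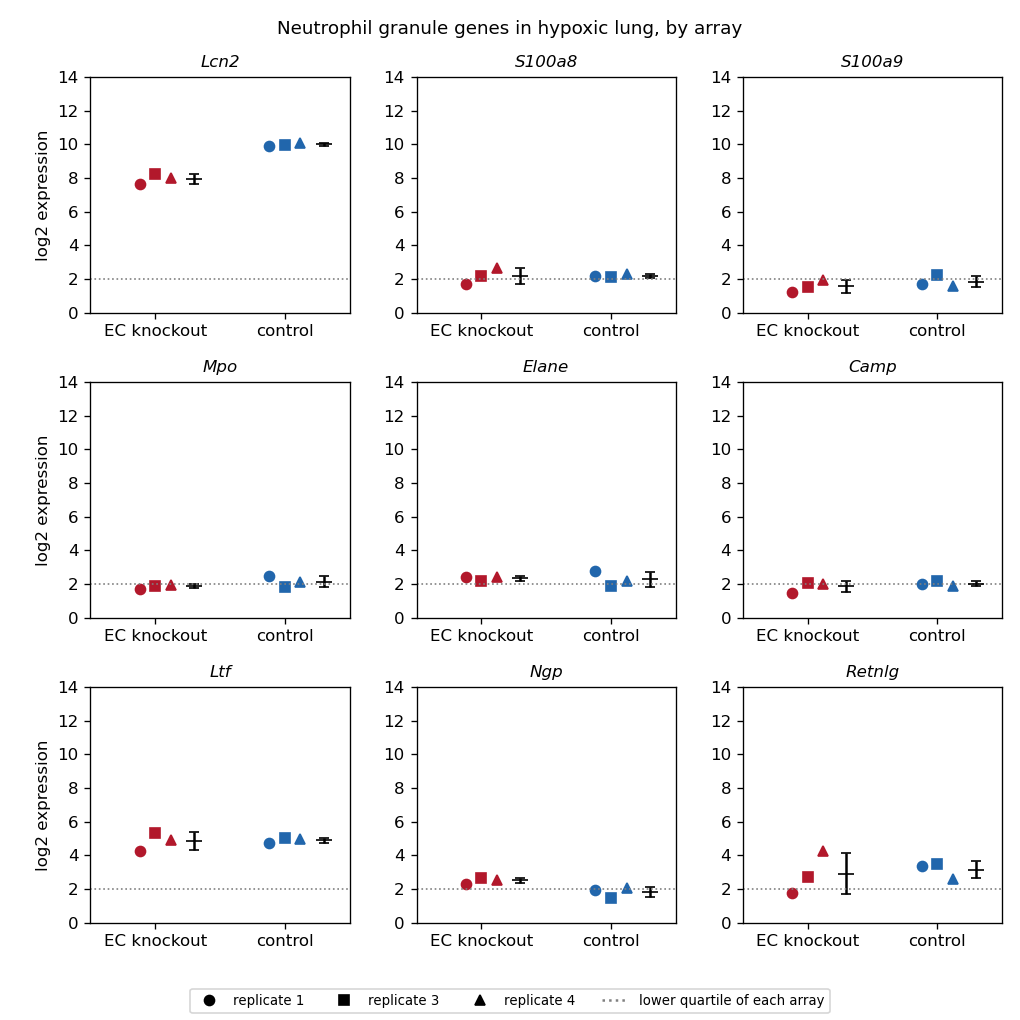
Log2 expression of each neutrophil granule gene on each array, EC knockout in red and control in blue, with the mean and SD in black (n = 3 each) and the arrays' lower quartile of 2.02 as a dotted line. Lcn2 lies between 7.62 and 8.24 in knockouts and between 9.93 and 10.1 in controls, and 6 members lie near the dotted line in both groups.

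Lcn2 encodes lipocalin 2, a specific granule protein that binds bacterial siderophores and so withholds iron. Its log2 value was 7.62, 8.24 and 8.01 on the knockout arrays, against 9.93, 9.97 and 10.1 on the control arrays. All knockout arrays were low and all control arrays high, with no overlap. The mean was 7.96 ± 0.31 in knockouts and 10.00 ± 0.09 in controls (SD, n = 3 each), a difference larger than the spread within either group. It differed by −2.04 ± 0.21 on the log2 scale (SE; limma, adjusted p = 0.0016, 95% interval −2.52 to −1.56), which is 4.12-fold lower in the knockout. A fold change this low or lower was found for 131 genes, Lcn2 included, or 0.530% of those measured. Lcn2 remained bright in both groups, at the 99.1 percentile of gene levels in knockouts and the 99.9 percentile in controls. Its call held in all 20 alternative analyses, including each analysis with 1 array left out, with log2 fold changes of −2.33 to −1.87 and adjusted p of 0.00049 to 0.018.

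Airway epithelium also expresses Lcn2, so its markers are set beside it. Among 8 airway markers 2 fell and 0 rose, with a median log2 fold change of −0.36. An unadjusted limma p under 0.05 was found for 4 of the 8, and for 9264 of all 24704 genes. The mean level of the 8 markers per array was 7.41 to 7.61 in knockouts and 7.68 to 8.22 in controls. Bpifa1, a secreted antimicrobial protein of the upper airways, stood at 6.86, 7.01 and 6.11 in knockouts and 8.11, 8.82 and 9.38 in controls (−2.11 ± 0.35, adjusted p = 0.0043). Reg3g, an antibacterial lectin, differed by −1.76 ± 0.51 on the log2 scale (adjusted p = 0.034). Its call was lost without knockout replicate 3 or without any 1 control array, with log2 fold changes of −2.26 to −1.12 and adjusted p up to 0.13 over the 6 analyses that left out 1 array. The club cell genes Scgb1a1 and Cyp2f2 differed by −0.59 ± 0.19 and −0.71 ± 0.25 on the log2 scale and did not pass (adjusted p = 0.052 and 0.066), and their groups did not overlap. Muc5b, Krt5 and Scgb3a2 went the other way, by 0.48, 0.48 and 0.21 on the log2 scale, and Scgb3a1 differed by −0.13. Each of these had overlapping groups and did not pass. None of the 8 airway markers lay under the lower quartile on all 6 arrays. Whether airway cells had a part in the fall of Lcn2 was not tested, and in whole lung fewer cells of a type and less RNA per cell cannot be told apart.

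**Figure D2:**
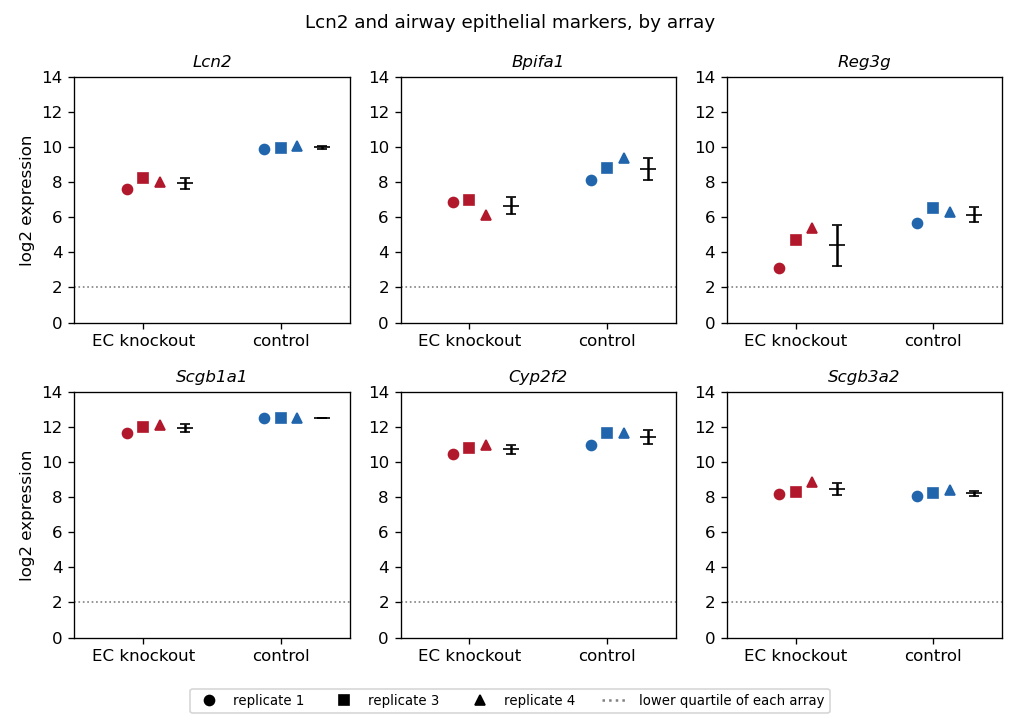
Log2 expression of Lcn2 and of 5 of the 8 airway epithelial markers on each array. EC knockout is in red and control in blue, with mean and SD in black (n = 3 each) and the lower quartile of 2.02 dotted. Muc5b, Krt5 and Scgb3a1 are not drawn, and their groups overlap, with log2 fold changes of 0.48, 0.48 and −0.13. Lcn2, Bpifa1 and Reg3g lie lower on all 3 knockout arrays, while Scgb3a2, at 8.19 to 8.85 in knockouts and 8.10 to 8.40 in controls, overlaps.

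Lcn2 is inducible by inflammatory signals, and a list of genes induced by the like was counted beside it. Of 11 acute phase and signal response genes 2 rose and 0 fell. Lrg1, a secreted glycoprotein made by neutrophils and endothelium, stood at 5.75, 6.07 and 6.50 in knockouts and 4.13, 4.53 and 4.46 in controls (1.73 ± 0.24, adjusted p = 0.0026). Socs3, the feedback inhibitor of cytokine signalling, differed by 1.28 ± 0.18 on the log2 scale (adjusted p = 0.0028). Hp, the haemoglobin scavenger haptoglobin and also a specific granule protein, differed by 0.52 ± 0.22 on the log2 scale (adjusted p = 0.12). Of the genes on either side of Lcn2 in GRCm38.p6, Ptges2 rose by 1.64 ± 0.20 (adjusted p = 0.0019), and 1110008P14Rik, which did not pass, differed by 0.76 ± 0.27 on the log2 scale (adjusted p = 0.070).

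Ltf encodes lactoferrin, the iron-binding protein of specific granules, and was the other member clear of the lower quartile on every array. Its log2 value was 4.28, 5.34 and 4.88 on the knockout arrays, against 4.70, 5.00 and 4.97 on the control arrays. The groups overlapped, with the lowest and the highest value both among the knockouts. The difference was −0.06 ± 0.27 on the log2 scale (SE; limma, adjusted p = 0.91). The 95% interval of −0.68 to 0.56 does not reach the difference seen for Lcn2, but with 3 arrays a group a change within it is not excluded. The chemokine-binding receptor gene Ccrl2, next to Ltf on the chromosome, fell (−0.87 ± 0.20, adjusted p = 0.016), while Rtp3 on the other side differed by 0.00 ± 0.22 on the log2 scale (adjusted p = 0.998).

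Ngp and Camp, both on chromosome 9, encode the cathelicidin-like granule protein NGP and the precursor of the antimicrobial peptide CRAMP. Ngp was at 2.32, 2.64 and 2.55 on the knockout arrays, against 1.91, 1.45 and 2.07 on the control arrays. Every knockout array lay above every control array, by as little as 0.24, and 2 of the control values lay under the lower quartile. The knockout was higher by 0.69 ± 0.22 on the log2 scale, or 1.61-fold (SE; limma, adjusted p = 0.0497, 95% interval 0.19 to 1.19). The call was lost in 5 of 6 analyses that left out 1 array, all but the one without knockout replicate 1, with log2 fold changes of 0.51 to 0.82 over all 6 and adjusted p up to 0.19. It was also lost with the trend in gene length removed (0.40, adjusted p = 0.21), with Xist as a covariate (0.74, adjusted p = 0.12) and with the replicate block (0.69, adjusted p = 0.073).

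Camp stood at 1.46, 2.08 and 2.01 on the knockout arrays, against 1.97, 2.19 and 1.90 on the control arrays. The groups overlapped and 4 of the 6 values lay under the lower quartile. Its log2 fold change was −0.17 ± 0.22 (adjusted p = 0.63, 95% interval −0.68 to 0.33). With 3 arrays a group a difference within that interval is not excluded, and Camp may not have been measured above background.

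Mpo and Elane encode the azurophil granule enzymes myeloperoxidase, which makes hypochlorous acid, and neutrophil elastase. Mpo was at 1.72, 1.89 and 1.95 on the knockout arrays, against 2.46, 1.85 and 2.12 on the control arrays, and its groups overlapped. Its log2 fold change was −0.29 ± 0.21 (adjusted p = 0.37, 95% interval −0.77 to 0.19). Elane was at 2.43, 2.15 and 2.42 on the knockout arrays, against 2.74, 1.89 and 2.16 on the control arrays. Control replicate 1 held the highest value of both enzymes and control replicate 3 the lowest of Elane, so the Elane controls enclosed the Elane knockouts. The log2 fold change of Elane was 0.07 ± 0.25 (adjusted p = 0.88, 95% interval −0.49 to 0.63).

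Prtn3, the proteinase 3 gene that adjoins Elane on chromosome 10, differed from its neighbour in call. It stood at 4.16, 3.68 and 3.56 in knockouts and 2.73, 2.74 and 3.26 in controls (0.89 ± 0.24, adjusted p = 0.027). The difference between Prtn3 and Elane was not tested. Without knockout replicate 1, control replicate 1 or control replicate 3 the call of Prtn3 was lost (0.71, 0.80 and 0.80 on the log2 scale). Among the 4 other azurophil genes examined 1 rose, Prtn3, and 0 fell, with a median of 0.48, and Ctsg, the cathepsin G gene, differed by 0.13 ± 0.25 on the log2 scale (adjusted p = 0.76).

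S100a8 and S100a9 are adjacent genes on chromosome 3 whose products form calprotectin, a calcium and zinc binding complex that makes up much of the neutrophil's cytosolic protein. S100a8 was at 1.70, 2.16 and 2.67 on the knockout arrays, against 2.15, 2.09 and 2.30 on the control arrays. The knockout values enclosed all the control values, and the means were equal to the second decimal (2.18 ± 0.49 in knockouts and 2.18 ± 0.11 in controls; SD, n = 3 each). The log2 fold change was 0.00 ± 0.26 (adjusted p = 0.999, 95% interval −0.58 to 0.58).

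S100a9 was at 1.19, 1.52 and 1.94 on the knockout arrays, against 1.69, 2.21 and 1.60 on the control arrays, and 5 of its 6 values lay under the lower quartile. The groups overlapped, and the log2 fold change was −0.28 ± 0.26 (adjusted p = 0.49, 95% interval −0.86 to 0.31). Both genes are known for very abundant mRNA in blood neutrophils. Here each was read by 1 probe set and neither stood clear of the lower quartile, and the reason was not tested. Of 11 other S100 genes 2 rose and 0 fell, S100a6 (1.26 ± 0.20, adjusted p = 0.0034) and S100a16 (0.87 ± 0.20, adjusted p = 0.014, lost without control replicate 1 or 3). Tlr4, a receptor through which S100A8/S100A9 signals, fell by 1.00 ± 0.20 on the log2 scale (adjusted p = 0.0092), a call lost without control replicate 3 (−0.90, adjusted p = 0.051). Ager, listed here both as a receptor of member proteins and as a lung tissue marker, went the other way and did not pass. It differed by 0.64 ± 0.25 on the log2 scale (limma adjusted p = 0.095), and its groups did not overlap.

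Retnlg encodes resistin-like gamma, a small secreted protein whose mRNA is a marker of mature mouse neutrophils. It was at 1.78, 2.73 and 4.23 on the knockout arrays, against 3.38, 3.49 and 2.59 on the control arrays. Knockout replicate 4 was the highest of all arrays and knockout replicate 1 the lowest, a span of 2.44 in knockouts and 0.90 in controls. The log2 fold change was −0.24 ± 0.54 (adjusted p = 0.79), and its 95% interval of −1.46 to 0.98 was the widest of the 9. The estimate turned on single arrays: it was 0.32 without knockout replicate 1 and −0.90 without knockout replicate 4, neither past the threshold. Retnla, its neighbour on chromosome 16 and a product of macrophages and epithelium, differed by −0.29 ± 0.44 on the log2 scale (adjusted p = 0.68).

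**Figure D3:**
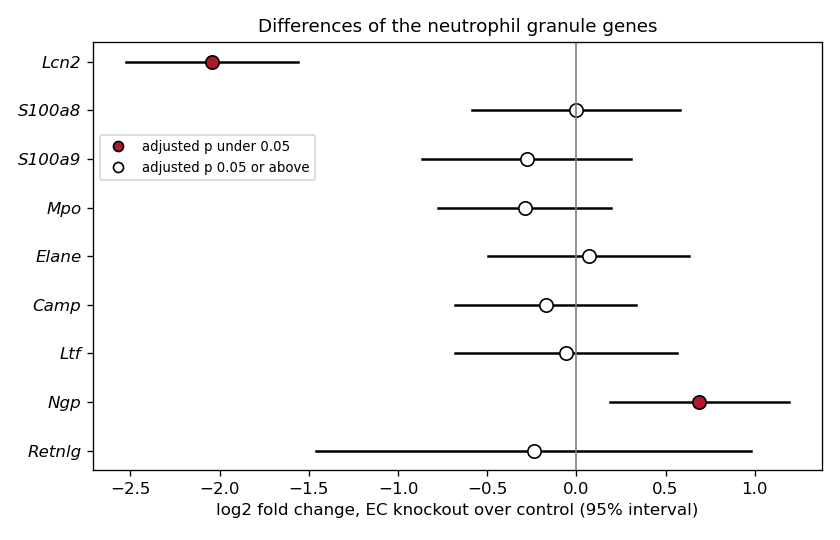
Log2 fold change, EC knockout over control, of each neutrophil granule gene with its 95% interval from limma, filled in red where the adjusted p was under 0.05. Lcn2 lies at −2.04 and Ngp at 0.69, and the intervals of the other 7 genes include 0.

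The members also varied within the knockout group. Knockout replicate 1 held the lowest knockout value for 8 of the 9, Elane being the exception, where 34.6% of all genes had their lowest knockout value there. Markers of other cells did not share one order among the knockouts. Knockout replicate 1 was the lowest knockout for 4 of 6 monocyte markers, 1 of 6 alveolar macrophage markers and 6 of 12 neutrophil surface genes, and the highest for 1, 1 and 4 of them. It was the lowest for 6 of 7 red cell and platelet markers and the highest for 1. Lung tissue markers showed the same, with this array the lowest knockout for 7 of 8 and the highest for 0. For the other S100 genes it was the lowest for 7 of 11 and the highest for 2. Among the red cell markers the haemoglobin gene Hbb-bt was at 3.20, 6.21 and 6.02 in knockouts and 5.18, 5.43 and 6.08 in controls. Its signal may include its near-identical copy Hbb-bs. The range over the knockouts exceeded that over the controls for 6 of the 9 members, against 67.0% of all genes. The part of cell content and residual blood in this spread was not tested.

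Profiles over the 6 arrays were also compared, as the root-mean-square difference of log2 values centred on each gene's mean, among 11277 protein-coding genes above the median level. This was done for Lcn2, Ltf and Retnlg, the members above that level. Nearest to Lcn2 were Cog5 at a difference of 0.10, Arid2 at 0.14 and Scaper at 0.14, where Lcn2 itself varied by 1.04 about its mean. Ltf lay nearest Cdk4 (0.06), Nup85 (0.08) and Camsap1 (0.09), itself varying by 0.32. Retnlg lay nearest Hhex (0.18), Lsm7 (0.20) and Mrpl51 (0.28), itself varying by 0.78. None of these members was among the 3 nearest genes of another. The other members were not among the genes searched, so the comparison could not show whether the members share profiles.

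Most other genes of neutrophils did not pass. Of 33 further neutrophil genes measured, 2 rose, 2 fell and 29 did not pass, where 25.5% of all genes passed. The median was 0.17, beside 0.04 over all genes. None of 9 other specific and gelatinase granule genes passed in limma. An unadjusted p under 0.05 was found for 3 of the 9, beside 9264 of all 24704 genes. Chil3, a lectin of macrophages and of neutrophil granules, was at 3.99, 6.49 and 7.18 in knockouts and 7.88, 7.59 and 7.44 in controls (−1.75 ± 0.67, adjusted p = 0.089). Besides Prtn3 and Fpr2 the calls were G0s2, a lipolysis inhibitor (1.24 ± 0.27, adjusted p = 0.011), and Wfdc21 (−0.71 ± 0.22, adjusted p = 0.043). Fpr2, a formyl peptide receptor, fell by 1.00 ± 0.26 on the log2 scale (adjusted p = 0.022). Fpr2 lost its call without control replicate 1 (−0.76) or 4 (−1.04), and Wfdc21 without any 1 array except knockout replicate 4, with values of −0.80 to −0.60. Ly6g, the surface antigen that defines mouse neutrophils, lay under the lower quartile on all 6 arrays, at 1.66, 1.68 and 1.89 in knockouts and 1.60, 1.37 and 1.88 in controls. Csf3r, the receptor for the neutrophil growth factor G-CSF, stood at 3.71 ± 0.22 in knockouts and 3.42 ± 0.22 in controls (SD, n = 3 each; adjusted p = 0.36).

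**Figure D4:**
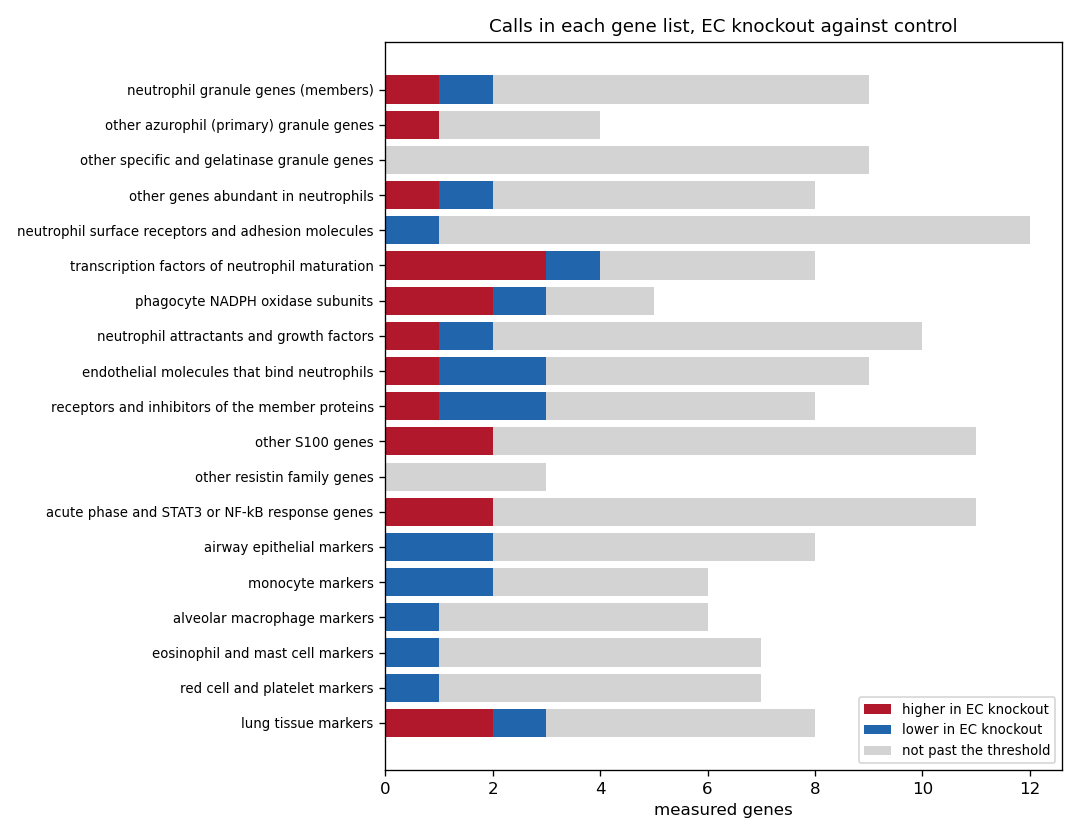
Number of measured genes in the neutrophil granule set and in each of 18 companion lists that were higher (red), lower (blue) or not past an adjusted p of 0.05 (grey) in EC knockout against control lungs. Among the members 1 was higher, 1 lower and 7 not past the threshold.

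Transcription factors of neutrophil maturation were called in both directions. Of 8 factors 3 rose and 1 fell, with a median of 0.46, where 12.5% of all genes rose and 13% fell. Which cells of the whole lung carried these transcripts was not tested. Cebpa, needed to enter the granulocyte line and also expressed in alveolar epithelium and macrophages, stood at 6.42, 6.90 and 6.58 in knockouts and 4.81, 4.83 and 4.61 in controls (1.88 ± 0.20, adjusted p = 0.0016). Cebpb, which acts in emergency granulopoiesis, differed by 1.46 ± 0.20 on the log2 scale (adjusted p = 0.0024), and Spi1, the gene of PU.1, by 0.75 ± 0.18 (adjusted p = 0.017, lost without control replicate 1 or 3). Cebpe, which activates specific granule genes such as Ltf, Camp and Ngp, was dim at 2.67, 2.58 and 2.29 in knockouts and 2.19, 2.12 and 1.84 in controls and did not pass (0.47 ± 0.20, adjusted p = 0.13). Myb, a factor of progenitors, fell (−0.85 ± 0.27, adjusted p = 0.048), a call lost in every analysis without 1 array except that without knockout replicate 3, with values of −0.98 to −0.66.

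**Figure D5:**
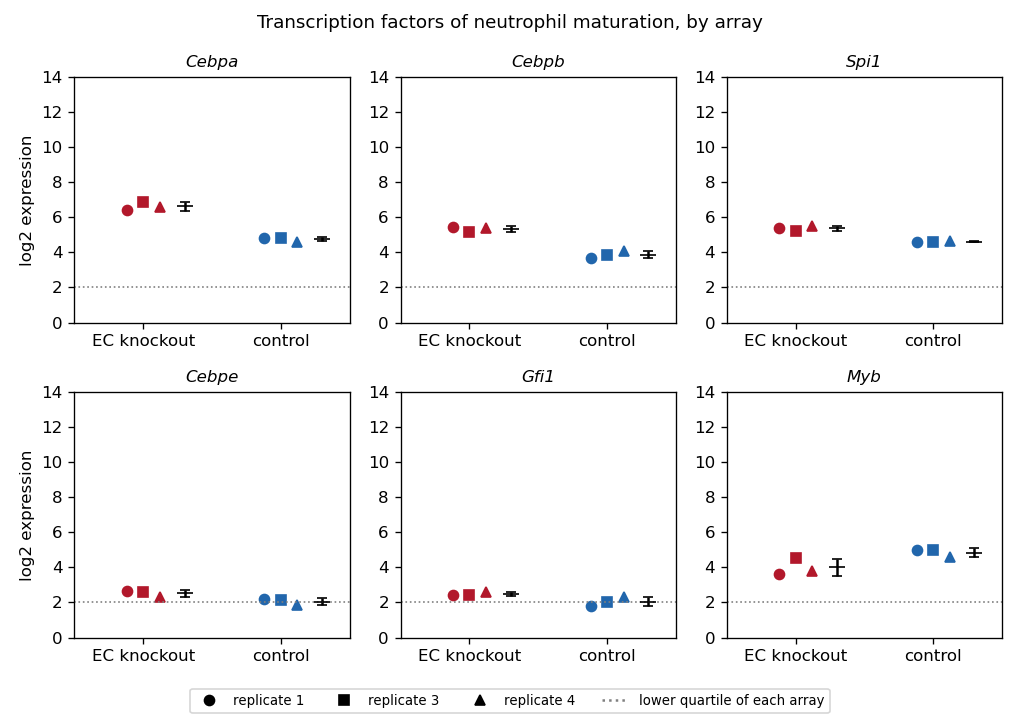
Log2 expression of 6 transcription factors of neutrophil maturation on each array, EC knockout in red and control in blue, with mean and SD in black (n = 3 each) and the lower quartile of 2.02 dotted. Cebpa at 6.42 to 6.90 and Cebpb at 5.17 to 5.45 in knockouts lie above the controls, at 4.61 to 4.83 and 3.70 to 4.09, and Cebpe lies near the dotted line.

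Genes that bring neutrophils to the lung or arm and restrain their enzymes moved in both directions. Of 10 attractants and growth factors 1 rose and 1 fell. Cxcl15, the neutrophil chemokine lungkine of lung epithelium, fell, with a mean of 8.94 ± 0.27 in knockouts and 10.6 ± 0.17 in controls (SD, n = 3 each; −1.66 ± 0.21, adjusted p = 0.0022). Its call held without any 1 array. Il17a, which induces Lcn2 in epithelium, rose but was dim, with a mean of 2.77 ± 0.08 in knockouts and 2.07 ± 0.20 in controls (SD, n = 3 each; 0.70 ± 0.19, adjusted p = 0.028). That call was lost without knockout replicate 3 or 4 or control replicate 3 or 4, with values of 0.63 to 0.69, and with the gene length trend removed (0.41, adjusted p = 0.15). Of 5 oxidase subunits that supply peroxide to myeloperoxidase, Cyba (1.68 ± 0.22, adjusted p = 0.0024) and Rac2 (0.99 ± 0.20, adjusted p = 0.0089) rose and Cybb fell (−1.49 ± 0.31, adjusted p = 0.0092). Serpinb1a, an inhibitor of elastase, fell (−1.02 ± 0.32, adjusted p = 0.044), a call lost without any 1 array other than knockout replicate 4, with values of −1.14 to −0.70. Of 8 receptors and inhibitors of the member proteins, Serpinb1a and Tlr4 fell and Lrp1, a receptor that also takes up lactoferrin, rose (1.34 ± 0.25, adjusted p = 0.0062). Of 9 endothelial molecules that hold or pass neutrophils 1 rose and 2 fell. Pecam1, the endothelial junction protein CD31, was at 8.17, 8.49 and 7.02 in knockouts and 9.50, 9.48 and 9.48 in controls (−1.59 ± 0.34, adjusted p = 0.011), a call that held without any 1 array. Jam3, a junction molecule, fell too (−1.02 ± 0.22, adjusted p = 0.011, lost without control replicate 1 at −0.98). Icam1, a ligand of neutrophil integrins, was the 1 that rose (0.65 ± 0.20, adjusted p = 0.040), a call lost without any 1 array except control replicate 4, with values of 0.55 to 0.66.

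Markers of other cells that could carry these transcripts were counted as well. Of 6 monocyte markers 2 fell and 0 rose, and their mean level per array was 2.94 to 3.62 in knockouts and 3.80 to 4.17 in controls. The falls were of Ly6c2 (−1.61 ± 0.49, adjusted p = 0.041), lost without any 1 array except knockout replicate 4 (−1.69 to −1.04), and of F13a1 (−1.54 ± 0.43, adjusted p = 0.028), lost without knockout replicate 4 or any 1 control array (−1.63 to −1.48). Of 6 alveolar macrophage markers 1 fell and 0 rose, with mean levels of 4.40 to 4.68 in knockouts and 5.05 to 5.31 in controls. The gene that fell was Mrc1 (−1.47 ± 0.28, limma adjusted p = 0.0069), a call that held without any 1 array. Red cell and platelet markers, a gauge of blood left after perfusion, fell at 1 of 7 and rose at 0, with mean levels of 3.22 to 4.46 in knockouts and 3.63 to 4.39 in controls. That fall was of Ppbp (−1.24 ± 0.38, adjusted p = 0.044), lost without knockout replicate 1 or control replicate 3 or 4 (−1.12 to −0.85). Markers of eosinophils and mast cells fell at 1 of 7 and rose at 0, the fall being of Cpa3 (−1.32 ± 0.36, adjusted p = 0.026), lost without knockout replicate 1 or control replicate 1 or 3 (−1.46 to −0.88). Neutrophil surface genes, 12 in number, had mean levels of 2.97 to 3.19 in knockouts and 3.07 to 3.18 in controls, with 1 lower and 0 higher. Of 8 genes abundant in the neutrophil cytosol 1 rose and 1 fell, and of 8 lung tissue markers 2 rose and 1, Pecam1, fell. The rises were of Cldn5 (0.91 ± 0.21, adjusted p = 0.014), lost without control replicate 1 or 3 (0.80 and 0.91), and of Foxf1 (0.58 ± 0.18, adjusted p = 0.039), lost without any 1 of the 6 arrays (0.54 to 0.61). None of the 3 other resistin family genes passed in limma (0 at an unadjusted p under 0.05). The part of these cells in the values of the members was not tested.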

How the data were processed

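Whole mouse lung was measured on 6 single-colour arrays, 3 EC knockout and 3 control, grouped by sample titles. The authors deposited log2 values summarised per probe set by RMA, per the submitters' processing notes. No source used here gives the version or the probe set definition. The columns share their quantiles to within 0.00183. Of 25428 probe sets, 24705 had 1 symbol in the platform annotation, 0 several and 723 none here. Where 1 symbol had 2 probe sets, the brighter stood for the gene. Entrez identifiers matched RefSeq (GRCm38.p6) for 24673.

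Knockout was compared with control in limma 3.58.1 (R 4.3.3), with Benjamini-Hochberg adjustment over 24704 genes, a threshold of 0.05 and no filter or covariate. Errors of fold changes are moderated standard errors. The 20 alternatives covered filters, scaling, probe set and gene choice, variance prior, array weights, Xist as a covariate, gene length, threshold, the replicate block and each array left out. The members and the 18 companion lists were chosen with earlier results of these data known. Genes named by rule were the members, Nfat5, Xist, companion genes past the threshold or among the 4 of smallest p in a list, and the 3 genes of nearest profile. Companion genes that the rule picked by smallest p but that did not pass are not all named above. Chromosomal neighbours, Hbb-bt, Ly6g, Sftpc, Scgb3a2, Scgb3a1, Muc5b, Cebpe, Gfi1, Asprv1, Krt5 and Slpi are outside that rule and were chosen after their values were seen. The design text speaks of 4 mice a group, but the labels tie no array to an animal, so p-values measure the spread between these arrays. The number of arrays limits the precision.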

Additional observations from a re-analysis of the deposited data

How the results depend on the processing

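Lcn2 kept its direction and its call in all 20 alternatives. Ngp kept its direction and lost its call in 9 of the 19 in which it was tested, and the other 7 members passed in none. The count of members past the threshold was 2. It became 1 with the replicate block, among genes above the median level (where Ngp was not tested), after removal of the gene length trend, with Xist as a covariate and at a threshold of 0.01, Lcn2 in each case. Leaving out 1 array gave 1 to 2. Over all genes the count was 6292, against 2827 with Xist as a covariate, 2560 at a threshold of 0.01 and 2882 to 6155 without 1 array (2882 without control replicate 3, 3141 without control replicate 1).

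Signs of genes that did not pass turned in some settings. Over the analyses that left out 1 array, log2 fold changes ran from −0.29 to 0.023 for Camp, −0.12 to 0.31 for Elane, −0.31 to 0.22 for Ltf, −0.90 to 0.32 for Retnlg and −0.25 to 0.24 for S100a8. The same ranges were −0.060 to 0.36 for Ctsg, −0.10 to 0.29 for Epx, −0.067 to 0.43 for Pf4 and −0.063 to 0.94 for Slc4a1. Array weights gave 0.065 for Ltf and 0.029 for S100a8, and centring on array medians gave 0.0013 for S100a8. Removal of the gene length trend gave −0.14 for Elane, −0.15 for Ctsg, −0.022 for Epx and −0.058 for Retnlb. The Xist covariate gave −0.0022 for Ctsg. The cause of these turns was not tested.

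The replicate numbers did not pair the arrays: deviations of same-numbered arrays correlated at 0.06, −0.01 and 0.0038, and 2 of 6 arrays correlated best with their own number. With the replicate block 6082 genes passed, and Ngp was the 1 member whose call changed. Chromosomal neighbours were not examined under the alternatives. Companion genes and Nfat5 kept direction and call in 1183 of 1360 values. Members near the lower quartile of 2.02 give no limit on a change below background.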

Other observations

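Asprv1, Krt5 and Slpi lie outside the naming rule and were named after their values were seen. Knockout and control arrays overlapped for each of them. Asprv1, an aspartic protease known from skin and from neutrophils, stood at 6.97, 7.56 and 2.76 on knockout replicates 1, 3 and 4, against 5.995, 2.48 and 6.18 on control replicates 1, 3 and 4. Krt5, a keratin of basal epithelial cells, stood at 5.08, 5.13 and 1.95 in knockouts and 3.72, 3.07 and 3.92 in controls. Slpi, the secretory inhibitor of elastase, stood at 6.73, 6.79 and 5.22 in knockouts and 5.57, 3.97 and 5.76 in controls. In all of them knockout replicate 4 was the lowest knockout and control replicate 3 the lowest control, and none passed the threshold (limma adjusted p of 0.68, 0.69 and 0.16). None of the 9 granule genes had both of these arrays lowest in their groups, and the share of all genes that did was not counted.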
